A study of Penicillium oxalicum with 6 samples.

Results

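The subject is a set of abundant Penicillium oxalicum genes whose mean transcript level was about the same in 2 strains. A gene entered the set if it had at least 300 FPKM in each of 6 RNA sequencing libraries and a ratio of the mutant mean to the PoxKu70 mean between 0.8 and its inverse, 1 / 0.8. Genes with locus tags of the letter u, which stand for no chromosome, were left out. Of the 9822 genes in the files, 90 met the rule, or 0.916%. FPKM is a level in sequenced fragments that takes account of how long a transcript is and how deeply a library was sequenced. The ratio between the strains chose the genes, so no test of that ratio supports anything below.

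Both groups were mycelium of this filamentous fungus. Spores came from plates kept 4 days at 28 °C and were grown for 24 h in glucose medium and then for 24 h in a medium whose sole carbon source was raw starch. One group was a POX_a00954 mutant (3 libraries), and the other was PoxKu70, given as wild type in the labels (3 libraries). POX_a00954 is a transcription factor gene according to the series title; the labels do not say which part of it was altered, and it was still read at 283, 275 and 441 FPKM in the mutant, against 716, 679 and 842 FPKM in PoxKu70. Whether PoxKu70 lacks a working Ku70, a DNA end-joining protein, and whether the mutant was made from it are likewise not in the labels. The FPKM sums of the libraries lay between 1338218 and 1409899 in the mutant and between 1025654 and 1076733 in PoxKu70, and the number of reads is unknown. Nothing in the labels says that replicates were separate cultures, so p-values and SDs measure the spread between these libraries, which may be technical.

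Transcripts that stay at a high level under many conditions usually serve processes that every cell needs, such as protein synthesis, chromatin packing and energy metabolism. Such genes are commonly used as references for quantitative PCR, where the level of a gene of interest is divided by theirs. In sequencing data a steady level is always steady relative to something else, because each library is scaled to its own total. The files and the reference table pair none of the 90 locus tags with a product or a gene name, so these genes are described by their tags, levels and positions, and no role is given to any of them.

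The genes covered a wide range of levels. Their means over the 6 libraries ran from 328 to 14390 FPKM with a median of 638 FPKM. Only 7 averaged 3000 FPKM or more, 17 lay between 1000 and 3000 FPKM, and 66 lay under 1000 FPKM. The 4 most abundant, POX_c03787, POX_b02060, POX_c03788 and POX_g09376, held 40.7% of the FPKM summed over all 90 genes and 6 libraries.

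**Figure D1:**
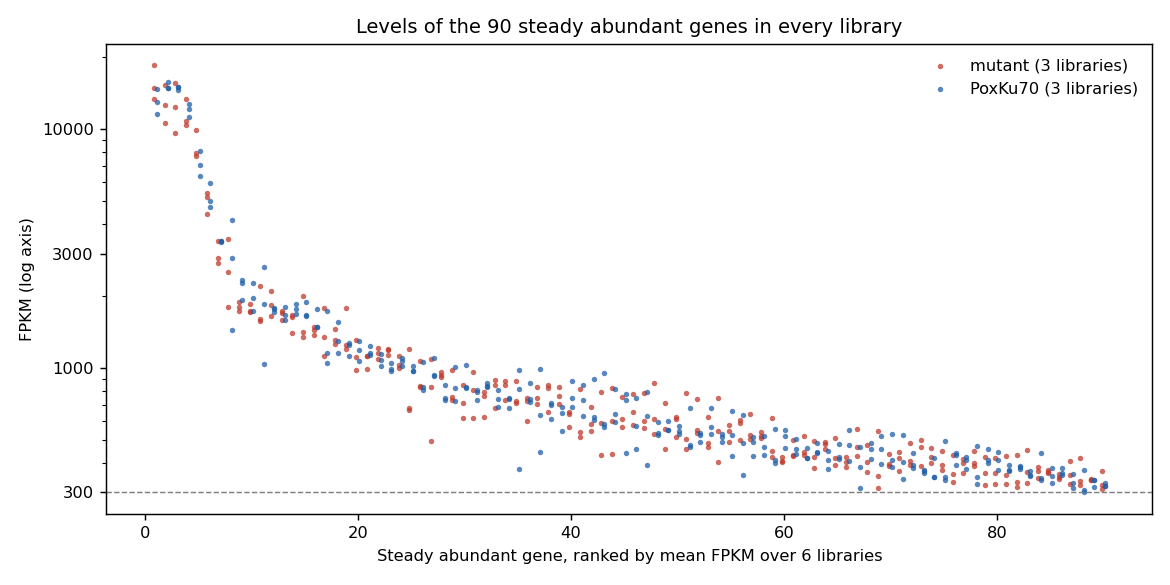
FPKM of each of the 90 steady abundant genes (log axis) in the 3 mutant libraries (red) and the 3 PoxKu70 libraries (blue), ranked by the mean over 6 libraries; the dashed line is the limit of 300 FPKM. The 7 genes at 3000 FPKM or more stand on the left, and red and blue points intermix along most of the row.

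POX_c03787 on chromosome III was the most abundant of the set. It had 13418, 14917 and 18529 FPKM in mutant replicates 1 to 3, against 13069, 14813 and 11595 FPKM in PoxKu70 replicates 1 to 3. The groups overlapped, with the highest value in mutant replicate 3. It ranked 3rd of all genes in the mutant and 6th in PoxKu70.

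POX_b02060 on chromosome II had 10622, 12670 and 15374 FPKM in the mutant, against 15727, 14845 and 14901 FPKM in PoxKu70. Its PoxKu70 libraries lay close together, with a coefficient of variation (CV, the SD as a percentage of the mean) of 3.26%, whereas the CV in the mutant was 18.5%. POX_c03788, the next locus tag after POX_c03787, had 9674, 12386 and 15578 FPKM in the mutant, against 14578, 14990 and 14976 FPKM in PoxKu70. The mutant values again spanned a wide range, with replicate 1 lowest, while those of PoxKu70 had a CV of 1.58%.

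POX_b02060 and POX_c03788 lie on different chromosomes, and the levels of both rose from mutant replicate 1 to 3. In PoxKu70 both varied little and did not move together. There, replicate 1 was the highest library of POX_b02060 and the lowest of POX_c03788. The ratio of POX_b02060 to POX_c03788 was 1.10, 1.02 and 0.99 in mutant replicates 1 to 3 and 1.08, 0.99 and 0.99 in PoxKu70 replicates 1 to 3. This pair was singled out after its values were seen. A ratio of 2 genes within a library does not change when the whole library is scaled by 1 common factor.

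POX_g09376 on chromosome VII kept the same rank, 7th, in both strains. Its level was 10412, 10795 and 13416 FPKM in the mutant and 11277, 12177 and 12752 FPKM in PoxKu70. It is the 2nd gene from the end of its chromosome in the order of the reference table. POX_c04062 on chromosome III had 9957, 7720 and 7920 FPKM in the mutant, against 6386, 7104 and 8125 FPKM in PoxKu70, and was highest in mutant replicate 1. The values of the strains overlapped for both genes.

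POX_e06638 on chromosome V had 5398, 4408 and 5222 FPKM in the mutant, against 4711, 5948 and 4978 FPKM in PoxKu70. POX_h09788 on chromosome VIII had 2894, 2757 and 3389 FPKM in the mutant, against 3414, 3353 and 3410 FPKM in PoxKu70. Its PoxKu70 libraries agreed more closely than those of any other gene of the set, with a CV of 1.00%. The last of the 10 most abundant were POX_a01427, POX_a01262 and POX_b03158, with means of 2710, 1989 and 1876 FPKM over the 6 libraries.

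A few genes of the set had adjoining locus tags, and no expected number was computed for comparison. Among the 90 genes there were 3 adjoining pairs with 5 genes in all, POX_c03787 to POX_c03789 on chromosome III and POX_b03115 with POX_b03116 on chromosome II. POX_c03789 stood at 605 ± 116 FPKM in the mutant, against 515 ± 23.4 FPKM in PoxKu70 (SD, n = 3 each), far below both tags before it. POX_b03115 had 786, 505 and 458 FPKM in the mutant, against 467, 680 and 476 FPKM in PoxKu70. POX_b03116 had 824, 596 and 435 FPKM in the mutant, against 592, 813 and 643 FPKM in PoxKu70. Both genes of this pair were highest in mutant replicate 1 and, among the PoxKu70 libraries, in replicate 2.

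The proportion between the adjoining genes POX_c03787 and POX_c03788 differed between the strains although both met the rule. The ratio of POX_c03787 to POX_c03788 was 1.39, 1.20 and 1.19 in mutant replicates 1 to 3, against 0.90, 0.99 and 0.77 in PoxKu70 replicates 1 to 3. The 3 mutant values lay above the 3 PoxKu70 values. The single ratios of mutant to PoxKu70 were 1.19 for POX_c03787 and 0.84 for POX_c03788, so the window of the rule leaves room for such a shift. The pair was chosen after its values were seen, and no test is given because each gene was selected by the same contrast.

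Some of the 90 genes hardly varied across the 6 libraries. The CV over the 6 libraries ran from 2.91% to 37.3% with a median of 13.0%, and was under 10% for 25 genes. The rule limits the part of this CV that comes from the strain means, so it is a description. POX_b02335 on chromosome II had the lowest, with 338, 340 and 342 FPKM in the mutant, against 316, 339 and 338 FPKM in PoxKu70. POX_g08621 on chromosome VII followed at 3.45%, with 343, 350 and 360 FPKM in the mutant, against 354, 379 and 363 FPKM in PoxKu70. Both genes stood just above the lower limit of the rule.

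A more abundant gene with little variation was POX_a00311 on chromosome I. It had 1001, 1024 and 1120 FPKM in the mutant, against 1017, 1096 and 1065 FPKM in PoxKu70, a CV over the 6 libraries of 4.52%. POX_c04133 on chromosome III had 364, 372 and 364 FPKM in the mutant, against 352, 329 and 380 FPKM in PoxKu70, with a CV of 4.90%. The values of both genes overlapped between the strains.

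Ratios between the genes, which do not change when a library is scaled by 1 common factor, ordered them in much the same way. For each of the 4005 pairs the SD of the log2 ratio over the 6 libraries was taken; it ran from 0.04 to 0.75 with a median of 0.26. The 3 steadiest pairs are given, picked after their values were seen. The steadiest was POX_a00383 with POX_e06581, whose ratio was 0.239, 0.228 and 0.236 in the mutant and 0.236, 0.234 and 0.246 in PoxKu70. The ratio of POX_d04988 to POX_h09490 was 0.363, 0.374 and 0.362 in the mutant and 0.387, 0.374 and 0.382 in PoxKu70. POX_a00311 and POX_g08621 followed with 2.92, 2.93 and 3.11 in the mutant, against 2.87, 2.90 and 2.93 in PoxKu70. Of the 10 genes with the lowest CV, 7 were also among the 10 with the lowest mean SD against all other genes of the set: POX_e06581, POX_a00591, POX_a00311, POX_a00383, POX_g08621, POX_b02335 and POX_e06523.

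Others met the rule on their means while their libraries spread widely. POX_a01427 on chromosome I had 3459, 2526 and 1804 FPKM in the mutant, against 1439, 2886 and 4144 FPKM in PoxKu70. Its highest library was 2.88 times its lowest, and both of these were PoxKu70 libraries. POX_a00897, also on chromosome I, had 2210, 1599 and 1569 FPKM in the mutant, against 1040, 1850 and 2641 FPKM in PoxKu70. These genes had CVs over the 6 libraries of 37.3% and 30.6%, and were low in PoxKu70 replicate 1 and high in PoxKu70 replicate 3.

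POX_a00849 on chromosome I was also low in PoxKu70 replicate 1. It had 876, 722 and 710 FPKM in the mutant, against 377, 983 and 814 FPKM in PoxKu70. POX_h09719 on chromosome VIII had 430, 584 and 794 FPKM in the mutant, against 566, 581 and 952 FPKM in PoxKu70, and was highest in replicate 3 of each strain. In all, 7 of the 90 genes differed more than 2-fold between their highest and lowest library. The mean ratio of such genes rests on libraries that disagree with each other.

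The genes closest to equality did not have the tightest libraries. POX_f07820 had a ratio of 0.999, POX_g08541 of 1.003 and POX_a01326 of 0.994. Mean levels of POX_f07820 were 439 ± 62.0 FPKM in the mutant and 439 ± 35.9 FPKM in PoxKu70 (SD, n = 3 each). Those of POX_a01326 were 644 ± 97.5 FPKM in the mutant and 648 ± 181 FPKM in PoxKu70 (SD, n = 3 each). For each, the spread between replicates was far larger than the difference between the means.

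The limits of the rule cut through a continuous range of values. At the lower ratio limit, POX_a01864 at 0.803 and POX_c04056 at 0.809 were inside, and POX_a00236 at 0.794 and POX_b02144 at 0.789 were outside. At the upper limit, POX_f08050 at 1.241 and POX_g08709 at 1.229 were inside, and POX_h09868 at 1.254 and POX_h09470 at 1.254 were outside. The lowest libraries of POX_c03747 and POX_e06523, at 303 and 310 FPKM, put them inside the level limit. Those of POX_a01375 and POX_e06851, at 297 and 296 FPKM, put them outside. Each of these 12 genes met the other conditions.

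Within a strain, the rule limits the spread between replicates only through the minimum of 300 FPKM in every library. That minimum removes genes near it with a low replicate. The other abundant genes met the same minimum, whereas the tested genes as a whole did not. The median CV of the 90 genes was 12.6% in the mutant and 8.77% in PoxKu70 (n = 3 libraries each). Among the 286 other genes that had at least 300 FPKM in every library, the medians were 10.3% in the mutant and 11.3% in PoxKu70, and over all 8448 tested genes they were 15.0% in the mutant and 12.6% in PoxKu70. The CV was higher in the mutant for 51 of the 90 genes, or 56.7%, against 58.7% of all tested genes. The mutant median was 7.51% without replicate 1, 12.3% without replicate 2 and 12.4% without replicate 3. These CVs are taken over fewer libraries than the 12.6%. The largest CVs within the mutant belonged to POX_e06236, at 36.9%, and POX_g08965, at 36.1%; both are named after their values were seen.

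POX_g08965 on chromosome VII shows what stood behind such a value. It had 1203, 668 and 677 FPKM in the mutant, against 972, 1016 and 973 FPKM in PoxKu70. Mutant replicate 1 was high and the other 2 mutant libraries lay below all PoxKu70 libraries. POX_e06236 on chromosome V had 1084, 829 and 494 FPKM in the mutant, against 927, 1095 and 936 FPKM in PoxKu70.

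Many of the 90 genes had their highest or lowest value in the same library. Mutant replicate 1 was the highest mutant library for 50 genes (55.6%), against 44.4% of all tested genes. For mutant replicate 3 these numbers were 35 genes (38.9%) and 48.6%. PoxKu70 replicate 1 was the lowest PoxKu70 library for 53 genes (58.9%), against 39.5% of the other abundant genes and 30.2% of all tested genes. Both patterns joined in 34 genes, or 37.8%, which were highest in mutant replicate 1 and lowest in PoxKu70 replicate 1; this held for 22.7% of the other abundant genes and 14.6% of all tested genes. These shares are descriptions, since the genes share the libraries. The median of the 90 genes relative to the strain mean was 1.05, 0.94 and 1.01 in mutant replicates 1 to 3 and 0.94, 1.02 and 1.02 in PoxKu70 replicates 1 to 3. Over all tested genes these medians were 1.03, 0.93 and 1.04 in the mutant and 0.98, 0.97 and 1.03 in PoxKu70. Over the other abundant genes they were 1.02, 0.95 and 1.03 in the mutant and 0.96, 1.07 and 0.95 in PoxKu70.

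**Figure D2:**
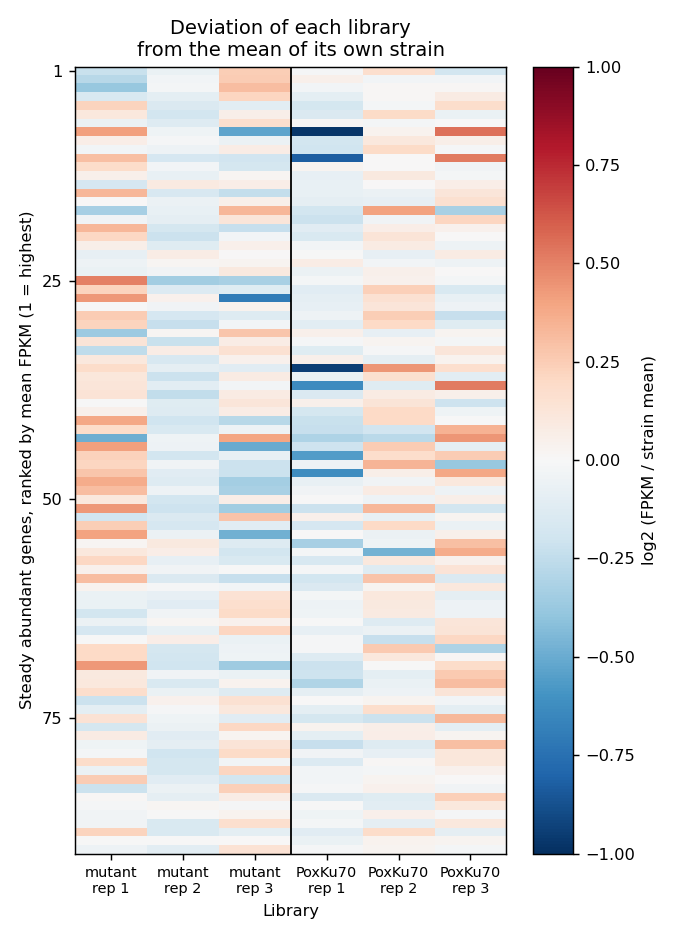
Deviation of each library from the mean of its own strain, as log2 (FPKM / strain mean), for the 90 genes from the most abundant at the top; mutant libraries are left of the black line and PoxKu70 libraries right of it. Mutant replicate 1 holds most of the red in the mutant, while PoxKu70 replicate 1 holds the deepest blue, at POX_a01427, POX_a00897 and POX_a00849.

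Steady genes were a minority among abundant genes. Of the 376 genes with at least 300 FPKM in all 6 libraries, 90 (23.9%) met the ratio rule, 221 had a higher ratio and 65 a lower one. The share of all tested genes inside the ratio window is not given here, so the minority is not particular to abundant genes on this evidence. The median ratio of the 286 others was 1.71. By level, the rule took 7 of 40 abundant genes averaging 3000 FPKM or more, 17 of 128 between 1000 and 3000 FPKM, and 66 of 208 below 1000 FPKM. These levels are means over all 6 libraries, so a change in the mutant can itself move a gene between the classes. Counted from each strain alone, the set made up 15.5% of the 580 genes with at least 300 FPKM in all mutant libraries and 18.0% of the 499 such genes of PoxKu70.

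**Figure D3:**
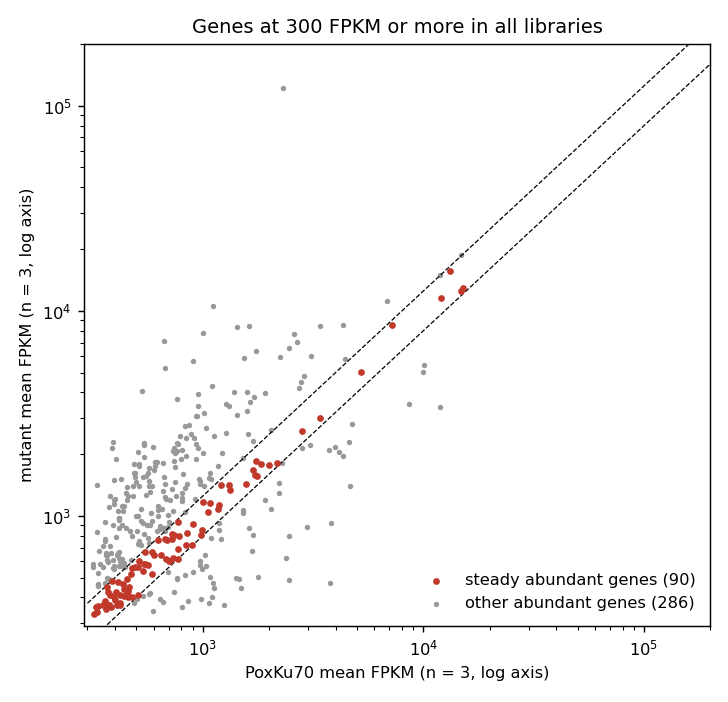
Mean FPKM of the mutant against mean FPKM of PoxKu70 (n = 3 each, log axes) for the 376 genes with at least 300 FPKM in all libraries; dashed lines mark the limits of the ratio window. The 90 steady abundant genes (red) lie between the lines, and most of the 286 others (grey) lie above them.

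As a background, limma on log2(FPKM + 1), a linear model with moderated variances, called 60.5% of the 8448 tested genes different between the strains at an adjusted p of 0.05 (Benjamini-Hochberg). It called none of the 90 genes, and 1 of them, POX_c04056, had an unadjusted p under 0.05. The rule used the same contrast, so nothing is read from this count. Among genes lower in the mutant, the lowest adjusted p were those of POX_c04056 (log2 change -0.30, SE 0.12; limma, adjusted p = 0.062) and POX_a01864 (log2 change -0.31, SE 0.14; limma, adjusted p = 0.091). Among genes higher in the mutant, they were those of POX_b02660 (log2 change 0.28, SE 0.12; limma, adjusted p = 0.079) and POX_f07805 (log2 change 0.29, SE 0.13; limma, adjusted p = 0.095).

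A ratio inside the window did not mean that the libraries intermixed. The 3 libraries of each strain did not overlap in 11 of the 90 genes (12.2%), 5 higher and 6 lower in the mutant. Of all tested genes, 68.1% showed no overlap. The rule kept the strain means of the 90 genes close, so nothing is read from this difference. POX_c04056 had 422, 408 and 402 FPKM in the mutant, against 459, 518 and 547 FPKM in PoxKu70. POX_b02660 had 933, 915 and 963 FPKM in the mutant, against 730, 843 and 749 FPKM in PoxKu70. POX_f07805 had 389, 464 and 500 FPKM in the mutant, against 368, 374 and 360 FPKM in PoxKu70. Without mutant replicate 1, 4 genes passed the threshold in limma: POX_a00855, POX_a01787 and POX_g08965 were lower and POX_f07805 was higher in the mutant. Of all genes tested in that fit, 56.9% passed, and nothing is read from the 4.

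The steadiness of these genes holds for FPKM and not for their share of the library. The 90 genes summed to 131103 ± 7915 FPKM in the mutant and 133785 ± 7351 FPKM in PoxKu70 (SD, n = 3 each). The sum over all genes was larger in the mutant, at 1373717 ± 35845 FPKM, against 1056246 ± 26997 FPKM in PoxKu70 (SD, n = 3 each). The set therefore made up 9.43%, 9.28% and 9.91% of the FPKM sum in mutant replicates 1 to 3, against 12.2%, 12.9% and 12.9% in PoxKu70 replicates 1 to 3. All 3 mutant shares lay below all 3 PoxKu70 shares.

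The other parts of the sum show where the strains differed. The 221 abundant genes above the window summed to 596626 ± 12028 FPKM in the mutant and 211361 ± 16453 FPKM in PoxKu70 (SD, n = 3 each). Among them, POX_a00166 alone made up 7.18% to 9.80% of the sum in the mutant libraries and 0.182% to 0.259% in those of PoxKu70. The 65 abundant genes below the window summed to 69957 ± 7022 FPKM in the mutant and 147562 ± 11946 FPKM in PoxKu70 (SD, n = 3 each). All remaining genes together had 576031 ± 14796 FPKM in the mutant, close to the 563537 ± 6378 FPKM in PoxKu70 (SD, n = 3 each). The abundant groups were formed by the ratio itself, so these sums are an account of the total and not a test.

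**Figure D4:**
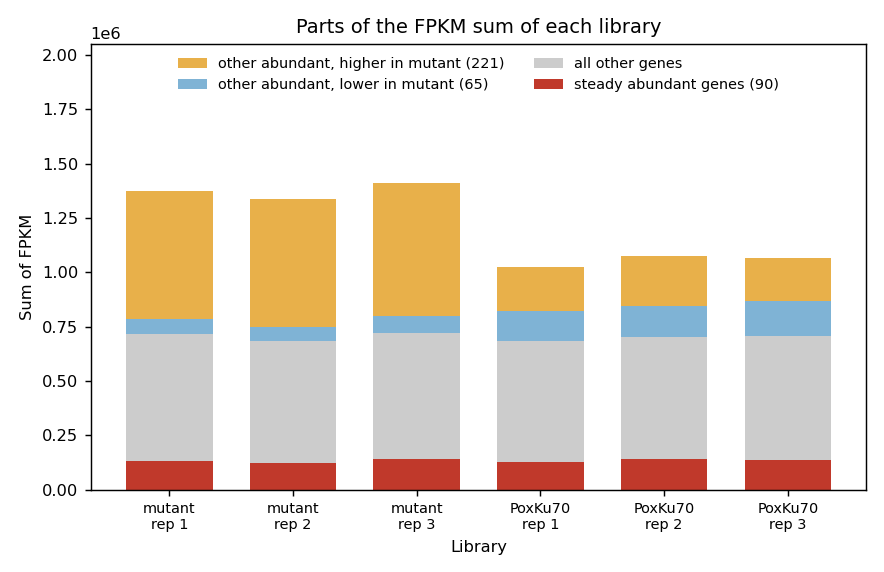
Sum of FPKM in each library, stacked from the 90 steady abundant genes (red), all other genes (grey), and the abundant genes with a ratio below the window (blue) and above it (yellow); mutant libraries are on the left. Red and grey have nearly the same height in all 6 libraries, and the yellow part makes the mutant bars taller.

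With each library rescaled to a sum of 1000000 (TPM scaling), all 90 ratios were below 1. They ran from 0.618 to 0.955 with a median of 0.767, and 35 of them stayed within the window. All tested genes had the same median under this scaling, 0.767, against 0.998 in FPKM. Limma then called 43 of the 90 genes lower in the mutant and none higher, where 46.3% of all tested genes were called lower and 19.6% higher. The share called lower was near the background, and the share called higher was below it. The rule held the FPKM ratios near 1, so the shift below 1 follows from the rule and the rescaling. Nothing about the 90 genes is read from these counts. In TPM computed without POX_a00166 and the tags of the letter u, a setting added after seeing the data, limma called 26 of the 90 lower, where 41.6% of all tested genes were called lower. With the libraries scaled to the same median over the 90 genes, POX_c04056 was the only one called, and 29.9% of all tested genes were called lower. As an example of the shift, POX_g08621 had a ratio of 0.738 in TPM and 0.960 in FPKM.

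Applying the whole rule to TPM gave 85 genes, of which 25 were in the set of 90. These 25 were 27.8% of the one set and 29.4% of the other. The other 60 all had an FPKM ratio above the window, with a median of 1.39 and a maximum of 1.62. Median-ratio scaling, which sets the typical gene equal between libraries, left all 90 ratios within the window. Quantile normalization, which makes the distributions of all libraries identical, left 44 within it and gave a median ratio of 0.792, while that of all tested genes was 0.992. Limma called 36 of the 90 lower after it, where 31.5% of all tested genes were called lower.

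**Figure D5:**
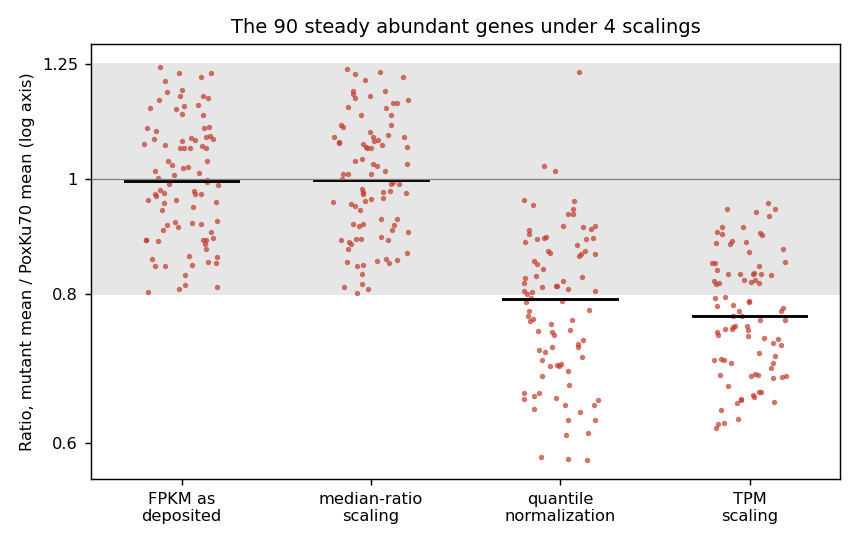
Ratio of the mutant mean to the PoxKu70 mean (log axis) for the 90 genes under 4 scalings; each point is 1 gene, black bars are medians, and the grey band is the ratio window of the rule. The medians are 0.996 for FPKM as deposited, 0.997 for median-ratio scaling, 0.792 for quantile normalization and 0.767 for TPM scaling.

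The rank of the genes, which needs no scaling, changed in the same direction. Of the 90 genes, 85 had a lower rank among all genes in the mutant than in PoxKu70, 1 had the same rank and 4 had a higher one. The rule held their ratios near 1, while 221 abundant genes lay above the window and 65 below it. How far the lower ranks follow from the rule was not tested, and nothing is read from the count. The same share over all genes was not computed. The median rank was 348th in the mutant and 282nd in PoxKu70, and genes moved by a median of 61 places. Among the 100 most abundant genes of each strain, 8 of the set were in the list of the mutant and 16 in that of PoxKu70. The 8 were POX_c03787, POX_b02060, POX_c03788, POX_g09376, POX_c04062, POX_e06638, POX_h09788 and POX_a01427, and all of them were in both lists. POX_e06638 ranked 34th in the mutant and 17th in PoxKu70 at nearly the same FPKM.

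The genes were spread over all 8 chromosomes, unevenly. All 90 tags matched the reference table. Chromosome I held 22 of them, II 16, V and VII 13 each, III 10, VIII 7, IV 5 and VI 4. Chromosome VII carried 14.4% of the set and 8.57% of all placed genes, while VI carried 4.44% of the set and 12.0% of all placed genes. On chromosome VI, 37 other genes were abundant in every library, so that 9.76% of its abundant genes met the ratio rule, against 33.3% on chromosome VII. No test of these shares was made.

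The rule did not use the levels of neighbouring genes. The 90 genes had 171 adjoining genes outside the set, of which 155 were tested. Limma called 82 of these (52.9%), 38 higher and 44 lower in the mutant, where 60.5% of all tested genes were called, 30.5% higher and 30.0% lower. In TPM the split was 26 higher and 76 lower, where 19.6% of all tested genes were called higher and 46.3% lower. By at least 1 log2 unit, 42 neighbours (27.1%) were called, where 29.6% of all tested genes were. The neighbours had a median level of 28.9 FPKM in the mutant and 30.9 FPKM in PoxKu70, close to those of all tested genes, at 29.1 FPKM in the mutant against 30.4 FPKM in PoxKu70. Of the 171 neighbours, 7 (4.09%) were themselves abundant in all libraries, where 3.84% of all placed genes were. The latter share counts the 90 genes, which the neighbours leave out, so the shares are not like for like.

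Some steady genes stood beside or near genes that changed. Those given here are examples picked after their values were seen, and other neighbours, such as POX_a01786, changed by more than some of these. POX_g08541, the 14th gene from the start of chromosome VII, had 544, 575 and 490 FPKM in the mutant, against 425, 520 and 660 FPKM in PoxKu70. The next gene, POX_g08542, had 0.51, 0.60 and 0.49 FPKM in the mutant, against 2857, 1959 and 2858 FPKM in PoxKu70. It fell by 10.68 on the log2(FPKM + 1) scale (SE 0.17; limma, adjusted p = 9.862e-09), a scale that understates the change because of the low mutant values.

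In the other direction, POX_g09290 rose beside POX_g09291. POX_g09290 had 4628, 3796 and 3778 FPKM in the mutant, against 465, 703 and 430 FPKM in PoxKu70 (log2 change 2.96, SE 0.20; limma, adjusted p = 1.222e-05). POX_g09291 had 1996, 1415 and 1341 FPKM in the mutant, against 1643, 1666 and 1886 FPKM in PoxKu70. POX_a01865 also rose, at 3443 ± 484 FPKM in the mutant, against 954 ± 80.0 FPKM in PoxKu70 (SD, n = 3 each). Its log2 difference was 1.85 with an SE of 0.15 (limma, adjusted p = 2.718e-05). POX_a01865 adjoins POX_a01864, which stood at 619 ± 47.1 FPKM in the mutant, against 771 ± 102 FPKM in PoxKu70 (SD, n = 3 each).

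POX_b03263 on chromosome II lies 2 tags before POX_b03265. POX_b03263 had 786, 598 and 558 FPKM in the mutant, against 391, 627 and 787 FPKM in PoxKu70. POX_b03264, between them, had 6.83, 8.51 and 10.3 FPKM in the mutant, against 3.49, 4.05 and 3.47 FPKM in PoxKu70. POX_b03265 had 7526, 10463 and 9695 FPKM in the mutant, against 15.7, 31.6 and 29.4 FPKM in PoxKu70. It rose by 8.49 on the log2(FPKM + 1) scale with an SE of 0.26 (limma, adjusted p = 2.079e-07). Beside the steady trio on chromosome III, POX_c03786 fell, at 576 ± 165 FPKM in the mutant, against 968 ± 181 FPKM in PoxKu70 (SD, n = 3 each). Its log2 difference was -0.77 with an SE of 0.23 (limma, adjusted p = 0.019). Neighbours can share reads where transcripts overlap, and the sources used here do not give the way reads were counted.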

How the data were processed

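Messenger RNA of mycelium was sequenced in 3 libraries per strain; per the labels' protocols, RNA was taken with Trizol, enriched with oligo(dT) beads and primed at random, and no step marks the strand. The submitters' processing notes name bcl2fastq and HISAT2 without versions; the sources used here give no counting tool, genome build or annotation. Per gene, the authors deposited FPKM with 2 decimals, per the file headers. FPKM sums are not fixed, and no scaling between libraries is recorded.

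The rule was applied to these values with Python 3.11.15, numpy 2.4.6 and pandas 2.3.3. The background fit used limma 3.58.1 in R 4.3.3 on log2(FPKM + 1), with an intensity trend, all 6 libraries, genotype as the only term, two-sided, over the 8448 genes averaging 1 FPKM or more; it was tested on simulated data. FPKM values give no depth, so no counting interval was possible. Fold changes on the log2(FPKM + 1) scale understate those of low genes. The genes and all lists were chosen with earlier results of these data known. Genes were named by level (the 10 highest), CV over 6 libraries (4 lowest, 4 highest), nearness of the ratio to 1 and to the limits, adjoining tags and lowest adjusted p; all others, such as pairs compared by ratio, genes with the widest mutant libraries and changed neighbours, were picked after their values were seen. Protein and promoter features and product lists were planned and not used here, for want of sequences and names. Of 9822 tags, 9718 matched RefSeq's table of P. oxalicum HP7-1 (ASM172317v3), which was used for chromosomes and neighbours only. In bulk mycelium, fewer cells of a kind and less RNA per cell cannot be told apart. Replicate numbers 1 to 3 occur in both strains; deviations of equal-numbered libraries were correlated to see whether they pair the samples. Alternatives were other limits of the rule, pseudocounts, filters, scalings and trend, leaving out each library, and a replicate block. The plots were made in matplotlib 3.10.9.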

Additional observations from a re-analysis of the deposited data

How the results depend on the processing

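The rule found 138 genes with a minimum of 200 FPKM, 41 with 500 FPKM, 52 with a narrower window from 0.9 and 149 with 0.67 to 1.5, by construction of these limits. It found 85 genes in TPM and 113 after quantile normalization, with 25 and 40 of the 90 among them, 92 after median-ratio scaling with all 90, and 91 with medians in place of means, with 84. Leaving out each library gave 87 to 94 genes, 77 to 87 of them among the 90. The letter u added none. The number of the 90 called in limma was 0 under both other pseudocounts, both other filters, median-ratio scaling, no trend and the replicate block. It was 43 under TPM scaling, 36 under quantile normalization (where 31.5% of all tested genes were called lower), 26 in TPM computed without POX_a00166 and the unplaced tags (41.6% of all called lower), a setting chosen after seeing the data, and 1 (POX_c04056) with the libraries scaled on the 90 genes (29.9% of all called lower). Leaving out each library gave 0 to 4. The median log2 ratio, -0.0053, became -0.38 in TPM, -0.34 after quantile normalization and -0.27 in TPM without POX_a00166 and the unplaced tags. It was -0.077 to 0.043 when each library was left out. Over all tested genes the median log2 change was -0.36 in TPM, -0.016 after quantile normalization and -0.26 without POX_a00166 and the unplaced tags. The median CV in the mutant became 9.63% after quantile normalization and 7.51% to 12.4% when each library was left out. In PoxKu70 it became 7.47% in TPM and 6.66% to 9.13% when each library was left out. Changed genes numbered 5107 in all, 4751 to 5566 under the other settings and 4349 to 5128 on leaving out each library; TPM scaling moved the split of calls to 1655 higher and 3911 lower, against 2575 and 2532. Whether replicate numbers pair the samples was not settled. Over all tested genes correlations between deviations of equal-numbered libraries were -0.090, 0.048 and 0.127. Over the 90 genes they were -0.336, -0.290 and -0.117. The genes share the same libraries and deviations are taken from each strain's own mean, so these correlations cannot exclude a weak pairing. With the replicate block 5103 genes changed, 4922 of them among the 5107. The upstream part of promoters was not run, for want of sequences. The number of reads is unknown, which limits low values such as those of POX_g08542 in the mutant.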

Other observations

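Both tags of the letter u with at least 300 FPKM in every library varied within the strains. POX_u09930 had 2646, 19010 and 1697 FPKM in the mutant, against 26592, 20076 and 6325 FPKM in PoxKu70. POX_u09936 had 449, 2847 and 908 FPKM in the mutant, against 2461, 1860 and 1104 FPKM in PoxKu70. In both, mutant replicate 2 was the highest mutant library, which it was for 5 of the 90 steady genes and for 6.94% of all tested genes. POX_a00954 and POX_c03583, the transcription factor genes that the series title names, did not meet the rule, with ratios of 0.447 and 0.509. Both also missed the level limit, with lowest libraries of 275 and 85.6 FPKM. POX_c03583 was below 300 FPKM in every library.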
